A study of Homo sapiens with 240 samples.

Results

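The genes described here are 10 early targets and feedback regulators of the ERK pathway: the phosphatases DUSP1, DUSP4, DUSP5 and DUSP6, the Sprouty genes SPRY1, SPRY2 and SPRY4, the Sprouty-related gene SPRED1, and the ETS transcription factors ETV4 and ETV5. They were chosen by symbol, and each was found once among the 27234 genes of each of 5 tables of TPM (abundance scaled by transcript length and by library). Polyadenylated RNA was measured in HEK 293T cells, a human embryonic kidney line, in 240 libraries that form 80 groups of 3. The tables differ in the genotype compared. The AMPK table sets AMPK knockout (KO) cells against wild-type (WT) cells, treated with 991, CCCP, phenformin (Phen) or rotenone (Rot) for 2, 4, 8 or 16 h. The FNIP1 table holds FNIP1 knockout cells given back FNIP1 by cDNA in both arms: SA5, in which the 5 sites phosphorylated by AMPK carry alanine, and WT FNIP1, with 991 for 2, 4, 8 or 16 h. The other 3 tables used 991 for 2, 4, 8, 16 or 24 h: DKO cells, which lack both TFEB and TFE3, against WT cells, ESRRA KO cells against WT cells, and cells given siPGC1a, an siRNA to PGC1A, against cells given the control siRNA siCont. Each arm had 1 DMSO group, at 0 h, so that drug and hours in culture cannot be told apart. 991 activates AMPK directly, CCCP uncouples mitochondria, and phenformin and rotenone inhibit respiratory complex I. Doses, the number of clones and whether replicates were separate cultures are not given in the labels, so p-values measure the spread between these libraries only.

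ERK is the last kinase of the RAS, RAF and MEK cascade below growth factor receptors. Its output genes include its own brakes. DUSP4 and DUSP1 are nuclear phosphatases that act on several MAP kinases, DUSP5 is a nuclear phosphatase of ERK, and DUSP6 is its cytoplasmic counterpart. Sprouty and SPRED proteins act further up, between the receptor and RAF. ETV4 and ETV5 are PEA3-family activators whose genes are induced by fibroblast growth factors through ERK and repressed by Capicua, a repressor that ERK inactivates. DUSP1 is also an immediate early gene that p38, JNK, cAMP and stress signals can induce.

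The listed TPM summed to between 396300 and 449200 per library. TPM keep no read counts, so the depth is unknown and precision can be judged only from the 3 libraries of a group. Markers of the embryonic kidney line summed to between 255 and 820 TPM per library. Of these VIM, NES, KRT8 and KRT18 had a median of 1 TPM or more in every table. PAX2 did only in the FNIP1 table, WT1 only in the AMPK and TFEB/TFE3 tables, and LHX1 nowhere. Other lists summed to at most 10.1 TPM (fibroblast), 5.1 TPM (blood) and 4.45 TPM (differentiated kidney). Endothelial markers reached at most 0.182 TPM and keratinocyte markers at most 0.122 TPM, both near 0. The transcripts of the targeted genes were lower and did not overlap between arms for PRKAA1 (2.15 to 3.73 TPM in AMPK KO libraries, 6.03 to 10.6 TPM in WT libraries, n = 51 each) and PPARGC1A. Those of ESRRA, TFEB, TFE3 and PRKAA2, the other catalytic AMPK subunit gene (2.55 to 4.87 TPM in KO libraries, 3.77 to 7.40 TPM in WT libraries), overlapped between arms. In the FNIP1 table, FNIP1 stood at 164 to 195 TPM in 13 of the 15 SA5 libraries and at 221 to 271 TPM in the 15 WT libraries. The library labelled SA5 DMSO replicate 1 had 5.47 TPM and the library labelled SA5 991 8 h replicate 1 had 45.1 TPM, against their label, so SA5 results are given with and without both. In the AMPK table, the labels of 3 WT Phen 2 h libraries and 3 WT CCCP 4 h libraries disagree within themselves. The wording of the first names 991 at 2 h, and that of the second names CCCP at 16 h. Their tags name Phen at 2 h and CCCP at 4 h, and these libraries were placed by the tags. Replicate 1 was the highest of 3 for 8 of the 10 genes in AMPK KO DMSO, for 9 in AMPK WT DMSO, for 10 in WT 991 4 h and for 8 in WT 991 2 h.

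By level, DUSP1 and SPRY2 led. In untreated WT cells of the AMPK table (DMSO; mean ± SD, n = 3) DUSP1 averaged 32.4 ± 13.2 TPM and SPRY2 19.3 ± 6.61 TPM, with overlapping libraries. SPRY1 averaged 6.71 ± 1.61 and DUSP5 6.21 ± 0.462 TPM, also overlapping, and both lay below SPRY2. SPRED1 (2.5 ± 0.0746), DUSP4 (2.09 ± 0.73), ETV5 (1.71 ± 0.25) and DUSP6 (1.22 ± 0.45 TPM) followed, each overlapping the next. ETV4 (0.733 ± 0.0709) and SPRY4 (0.529 ± 0.187 TPM) were lowest and overlapped. The order was similar in the other control arms, where SPRY4 was again lowest, between 0.32 and 0.714 TPM, but ETV5 stood higher, at 4.61 ± 0.583 TPM in WT cells of the ESRRA table. In GRCh38 the transcripts used are at chr5:172768090-172771200 (DUSP1, minus strand), chr10:110497867-110511544 (DUSP5, plus), chr12:89347825-89352859 (DUSP6, minus), chr4:123398386-123403760 (SPRY1, plus; chr4:123396795-123403760 in the FNIP1 table), chr13:80335977-80341115 (SPRY2, minus), chr5:142310427-142325055 (SPRY4, minus), chr15:38252851-38357249 (SPRED1, plus), chr17:43527843-43545937 (ETV4, minus) and chr3:186046317-186109112 (ETV5, minus). Whether reads were counted by strand is not stated. An exon of ETV4 overlaps DHX8 on the opposite strand, whose median was 21.3 TPM in the AMPK table, so reads of DHX8 in ETV4 cannot be told apart.

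The promoters of the early gene DUSP1 and of SPRY2, the most abundant Sprouty gene, are shown because they parted in the first hours of CCCP. Each line gives the 250 bases before the start site, 5′ to 3′ on the minus strand, from RefSeq (GRCh38.p14), with motif matches in capitals.
DUSP1, chr5:172771196-172771445: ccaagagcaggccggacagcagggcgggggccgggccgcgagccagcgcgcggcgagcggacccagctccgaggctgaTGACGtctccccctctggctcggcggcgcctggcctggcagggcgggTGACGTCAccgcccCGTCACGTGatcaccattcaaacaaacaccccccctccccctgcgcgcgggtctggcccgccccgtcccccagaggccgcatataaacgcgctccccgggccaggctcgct
SPRY2, chr13:80341127-80341376: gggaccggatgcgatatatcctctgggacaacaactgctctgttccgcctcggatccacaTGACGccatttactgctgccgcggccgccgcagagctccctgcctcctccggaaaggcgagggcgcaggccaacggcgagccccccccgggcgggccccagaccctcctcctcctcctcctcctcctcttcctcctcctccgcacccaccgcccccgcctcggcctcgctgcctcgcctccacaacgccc
In the DUSP1 sequence the capitals mark a cAMP response element, TGACGTCA, from -125 to -118 before the start site, which 1.85% of 35116 promoter windows hold. They also mark its short form TGACG at 4 places, of which 2 lie inside the full element (24.6% of windows), and an E-box, CACGTG, from -108 to -103 (7.26%), which overlaps the last of them. In SPRY2 they mark TGACG from -190 to -186. Both strands were searched in 300 bases a window (250 before and 50 after the start), also for GGAAGT, the ETS core (22.8% of windows), for the Capicua octamers TGAATGAA (1.65%) and TGAATGGA (1.03%), for TGATGCAA (0.866%) and for the CArG box of serum response factor (1.29%). Of 9 windows for 6 of the 10 genes, another window of SPRY2 held GGAAGT, SPRY4 held TGACG, and DUSP6, SPRY1 and SPRED1 held none of these. A match describes these letters only.

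Most of these genes fell in AMPK KO and WT cells under all 4 compounds. After a filter on low values (genes had to reach 1 TPM in 3 or more libraries) 8 of the 10 were tested in this table, where DUSP6 and SPRY4 did not pass. DUSP4, ETV4 and ETV5 passed through few groups, so their counts are descriptions. Differences are on the log2(TPM + 1) scale, treated minus DMSO of the same arm ± SE, from limma fitted over all tested genes, with an adjusted p under 0.05 as the call; the scale understates changes of low genes. Under CCCP at 16 h, 8 of 8 were lower in KO cells (against 29.3% of all tested genes) and 8 of 8 in WT cells (26.6%). Under rotenone at 16 h they were 8 of 8 in KO cells (27.9%) and 8 of 8 in WT cells (29.2%), and under 991 7 of 8 (27.1%) and 8 of 8 (26.9%). Phenformin at 16 h gave fewer, 5 of 8 in KO cells (37.7%) and 6 of 8 in WT cells (34.9%). The median of the 8 genes at 16 h in WT cells was -1.01 under 991, -0.98 under CCCP, -0.47 under phenformin and -1.06 under rotenone, against 0.07, 0.09, 0.07 and 0.03 over all tested genes. In bulk RNA, fewer cells with a transcript and less of it per cell cannot be told apart.

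**Figure D1:**
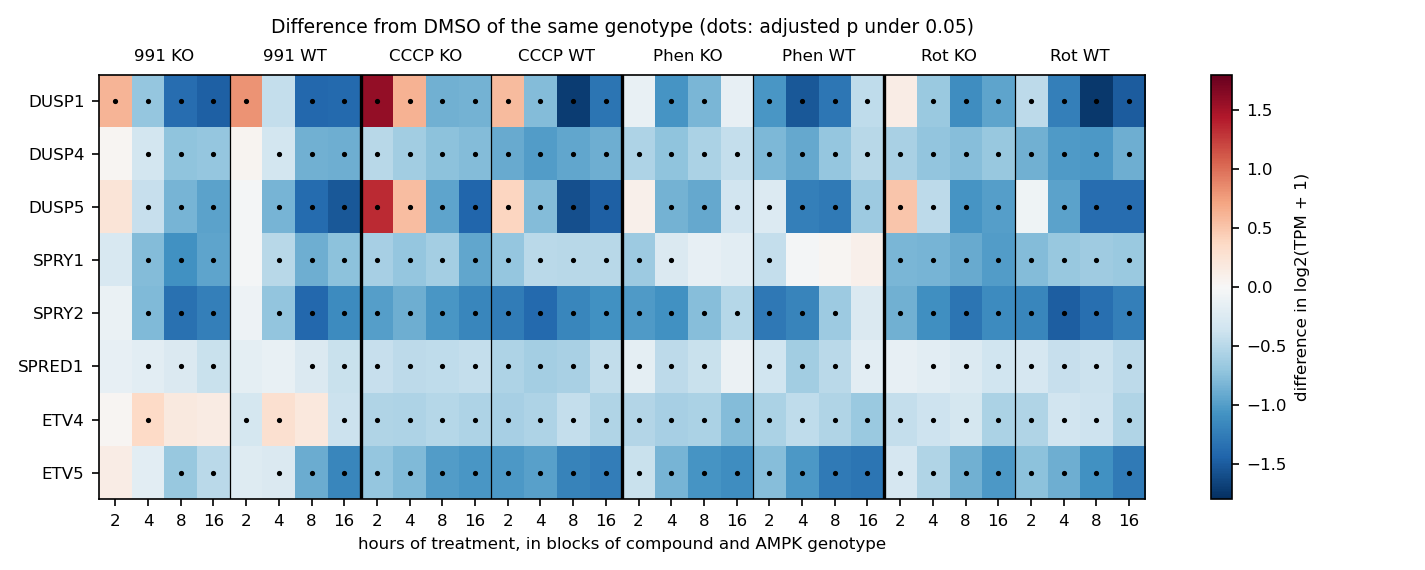
Log2(TPM + 1) difference from DMSO of the same arm for the 8 tested genes, 1 per line, with compounds and hours of treatment across and AMPK KO left of WT within each compound; dots mark an adjusted p under 0.05. Blue is lower and red is higher than DMSO; red with a dot appears in DUSP1 and DUSP5 at 2 h or 4 h and in ETV4 at 4 h of 991.

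Among the phosphatases, DUSP4 was called lower in 30 of 32 comparisons with DMSO (29.6% of all gene-by-comparison tests) and never higher (29.8%). DUSP4, whose listed transcript lies at chr8:29333062-29350750 (GRCh38, minus strand), stood at 0.613, 0.416 and 0.483 TPM after 4 h of rotenone in WT cells, against 2.93, 1.6 and 1.75 TPM in DMSO (-1.02 ± 0.10, adjusted p = 9.17e-14); the groups did not overlap. DUSP5, the ERK-selective nuclear phosphatase, was higher in 4 of 32 and lower in 24, and the timing separated them. At 16 h of CCCP DUSP5 had 0.867, 0.797 and 0.824 TPM in KO cells, against 4.01, 3.83 and 3.85 TPM in their DMSO libraries (-1.42 ± 0.10, adjusted p = 5.67e-21). In WT cells it had 1.55, 1.58 and 1.65 TPM with CCCP and 6.4, 6.54 and 5.68 TPM with DMSO (-1.47 ± 0.10, adjusted p = 1.41e-21). All 3 treated libraries were lower in both arms.

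Among the Sprouty genes, SPRY2 was lower in 29 of 32 comparisons and SPRY1 in 25 (29.6% of all gene-by-comparison tests). Neither was called higher (29.8%). The comparisons of an arm share its DMSO group. SPRY2, which restrains receptor signalling to RAS, had 4.93, 3.63 and 4.04 TPM after 2 h of CCCP in KO cells, against 13.3, 7.3 and 8.04 TPM with DMSO (-0.99 ± 0.15, adjusted p = 1.17e-07). In WT cells SPRY2 had 7.85, 6.09 and 7.85 TPM with CCCP, against 26.8, 14 and 17.3 TPM with DMSO (-1.26 ± 0.15, adjusted p = 2.05e-10). Treated and DMSO libraries did not overlap in either arm, although DMSO replicate 1 stood well above the other two. SPRY1 changed less: under CCCP at 2 h it had 5.37, 4.39 and 5.4 TPM in KO cells, against 10.1, 7.47 and 7.1 TPM with DMSO (-0.60 ± 0.11, adjusted p = 6.38e-06). SPRED1, which holds the RAS inhibitor neurofibromin at the membrane, was lower in 27 of 32 (29.6% of all gene-by-comparison tests). Its largest fall was 0.62 on the log2(TPM + 1) scale, which understates changes of low genes. This was in WT cells under phenformin at 4 h (1.29, 1.29 and 1.25 TPM, against 2.58, 2.44 and 2.46 TPM with DMSO).

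Both ETS factors were called lower in all 24 comparisons with CCCP, phenformin or rotenone, whatever the arm or time, against 32.8% of all gene-by-comparison tests. ETV5 had 0.082, 0.052 and 0.085 TPM after 16 h of phenformin in KO cells, against 1.29, 1.25 and 1.42 TPM with DMSO (-1.11 ± 0.10, adjusted p = 8.61e-16). In WT cells it had 0.044, 0.079 and 0.125 TPM with phenformin, against 1.94, 1.45 and 1.75 TPM with DMSO (-1.32 ± 0.10, adjusted p = 3.05e-19). No treated library reached a DMSO library in either arm. ETV4 had 0.008, 0.05 and 0 TPM in KO cells with 16 h of phenformin, near the bottom of the scale, against 0.891, 0.662 and 0.682 TPM with DMSO (-0.77 ± 0.10, adjusted p = 4.2e-10). In WT cells ETV4 had 0.03, 0.103 and 0.134 TPM, against 0.784, 0.652 and 0.763 TPM with DMSO (-0.67 ± 0.10, adjusted p = 2.2e-08). The fall of ETV5 deepened with time under rotenone in WT cells, where the difference was -0.74 at 2 h, -0.87 at 4 h, -1.09 at 8 h and -1.27 at 16 h, while that of ETV4 lay between -0.34 and -0.54 throughout.

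Under CCCP the exception was the early response of DUSP1 and DUSP5, which was stronger in AMPK KO cells. At 2 h, 2 of 8 genes were higher in KO cells (against 18.6% of all tested genes) and 6 lower (38%), and the same 2 genes were higher in WT cells (24.2%), with 6 lower (32.5%). DUSP1 had 102.2, 79.5 and 85.8 TPM in KO cells with CCCP, against 44.9, 21.8 and 24.8 TPM with DMSO (1.58 ± 0.19, adjusted p = 3.53e-11). In WT cells DUSP1 had 40.5, 49.7 and 48.8 TPM with CCCP and 47.2, 21.9 and 28.2 TPM with DMSO (0.57 ± 0.19, adjusted p = 0.00716). The KO groups did not overlap, whereas in WT cells DMSO replicate 1 lay among the treated libraries, and the WT call was lost without replicate 2 (0.28, adjusted p = 0.358) or replicate 3 (0.47, adjusted p = 0.181). DUSP5 had 15.2, 8.95 and 11 TPM in KO cells with CCCP, against 4.01, 3.83 and 3.85 TPM with DMSO (1.35 ± 0.10, adjusted p = 6.06e-19). In WT cells DUSP5 had 8.87, 7.44 and 8.88 TPM with CCCP and 6.4, 6.54 and 5.68 TPM with DMSO (0.38 ± 0.10, adjusted p = 0.000974; 0.29, adjusted p = 0.101 without replicate 3). Neither arm's libraries overlapped for DUSP5.

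**Figure D2:**
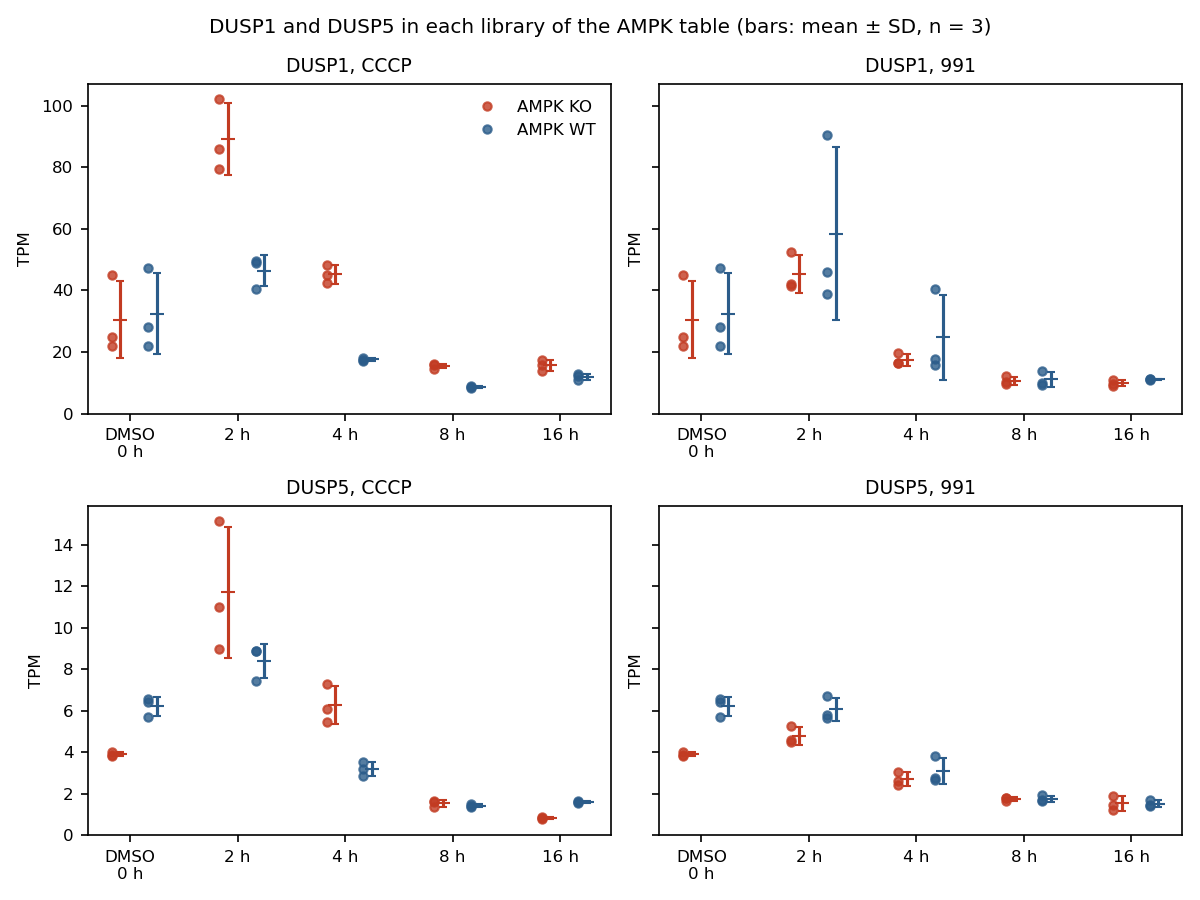
TPM of DUSP1 (upper panels) and DUSP5 (lower panels) in each library of the AMPK table under CCCP (left) and 991 (right) by hour, with AMPK KO drawn left of WT and DMSO at 0 h; points are libraries and bars the mean ± SD of 3. Under CCCP the KO libraries stand above the WT libraries at 2 h and 4 h for both genes.

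By 4 h the arms had parted. DUSP5 had 7.28, 6.08 and 5.46 TPM in KO cells and 3.51, 2.85 and 3.19 TPM in WT cells, which was above DMSO in KO cells (0.56 ± 0.10, adjusted p = 1.63e-06) and below it in WT cells (-0.79 ± 0.10, adjusted p = 3.87e-10). The difference between these responses, KO minus WT, was 1.35 ± 0.14, adjusted p = 1.03e-11, after 0.97 ± 0.14, adjusted p = 1.47e-06 at 2 h, and it was 0.63 ± 0.14, adjusted p = 0.000705 at 8 h and 0.05 ± 0.14, adjusted p = 0.826 at 16 h. DUSP1 had 48.4, 45.1 and 42.3 TPM in KO cells at 4 h and 17.1, 17.5 and 18.1 TPM in WT cells, and its responses differed by 1.01 ± 0.26, adjusted p = 0.0086 at 2 h, 1.40 ± 0.26, adjusted p = 2.52e-05 at 4 h and 0.84 ± 0.26, adjusted p = 0.0149 at 8 h. Over the whole course 4 of 8 genes differed in response between arms (DUSP1, DUSP4, DUSP5 and SPRY1), against 52% of all tested genes. DUSP5 kept this call in 10 of 10 settings and DUSP1 in 9 of 10 (adjusted p = 0.0531 over the course without replicate 3), while DUSP4 and SPRY1 kept it in 5 of 10. The WT CCCP 4 h libraries are those whose labels disagree, and the calls of DUSP1 and DUSP5 were kept without that time. Under phenformin and rotenone none of the 8 was called by limma over the response course, where 15.9% and 3.58% of all genes were; at an unadjusted p under 0.05 there were 1 and 1. At 2 h of rotenone DUSP5 alone was called (0.57 ± 0.14, adjusted p = 0.0303; 0.228% of genes higher), with 6.32, 5.55 and 5.86 TPM in KO cells against 4.01, 3.83 and 3.85 TPM with DMSO.

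Under 991 few of the genes were called at 2 h, and most were lower at 16 h. At 2 h, 1 of 8 was called higher in KO cells (DUSP1; 4.28% of all genes) and none lower (10.7%), and in WT cells DUSP1 was higher (5.94%) and ETV4 lower (11.4%). DUSP1 had 42, 41.4 and 52.5 TPM in KO cells with 991, against 44.9, 21.8 and 24.8 TPM with DMSO (0.62 ± 0.19, adjusted p = 0.0156). In WT cells it had 90.5, 38.8 and 45.8 TPM with 991 and 47.2, 21.9 and 28.2 TPM with DMSO (0.80 ± 0.19, adjusted p = 0.00105). Both pairs of groups overlapped, DMSO replicate 1 being the highest of its group; the KO call was lost without replicate 2 (0.48, adjusted p = 0.28) or 3 (0.40, adjusted p = 0.53), and the WT call without replicate 3 (0.86, adjusted p = 0.075). Over the 991 course 3 of 8 genes differed in response between arms, against 32.1% of all genes. At 16 h DUSP5 (KO minus WT response 0.55 ± 0.14, adjusted p = 0.00418) and ETV5 (0.69 ± 0.15, adjusted p = 0.000573; 4.96% of genes higher) had fallen less in KO cells than in WT cells. ETV4 was 0.15 ± 0.10, adjusted p = 0.202 against DMSO in KO cells and -0.38 ± 0.10, adjusted p = 0.000892 in WT cells (KO minus WT response 0.53 ± 0.15, adjusted p = 0.00762). ETV5 had 0.23, 1.15 and 0.719 TPM in KO cells at 16 h, against 0.223, 0.172 and 0.206 TPM in WT cells. KO replicate 1 was close to the WT libraries and KO replicates 2 and 3 were well above them. ETV4 had 0.41, 1.53 and 1.03 TPM in KO cells and 0.324, 0.285 and 0.382 TPM in WT cells, and DUSP5 1.2, 1.47 and 1.9 TPM and 1.7, 1.45 and 1.39 TPM. In level the arms overlapped for DUSP5 and not for ETV4. With DMSO, DUSP5 was already lower in KO cells than in WT cells (-0.55 ± 0.10, adjusted p = 5.89e-06). Its smaller fall in KO cells thus started from a lower level and ended at a similar one. ETV4 and ETV5 passed the filter on low values through few groups, so their calls are descriptions. None of the 3 genes kept the call at 16 h without replicate 2 or without replicate 3, where DUSP5 stood at 0.50, adjusted p = 0.12 and 0.46, adjusted p = 0.219.

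Before any treatment the arms differed too. With DMSO, 4 of 8 genes were lower in AMPK KO cells than in WT cells, against 22.7% of all tested genes, and none was higher (16.2%). SPRY2 had 13.3, 7.3 and 8.04 TPM in KO cells and 26.8, 14 and 17.3 TPM in WT cells (-0.94 ± 0.15, adjusted p = 6.55e-07), with no overlap. DUSP5 (-0.55 ± 0.10, adjusted p = 5.89e-06), DUSP4 (-0.52 ± 0.10, adjusted p = 1.03e-05) and SPRED1 (-0.44 ± 0.07, adjusted p = 1.51e-07) were also lower. Of these DUSP4 passed the filter on low values through few groups, so its call is a description. DUSP1 did not pass (-0.08 ± 0.19, adjusted p = 0.756), with 44.9, 21.8 and 24.8 TPM in KO cells and 47.2, 21.9 and 28.2 TPM in WT cells. The number of clones behind each arm is not stated, and genotype and clone cannot be told apart.

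991 was given in all 5 experiments, in 10 arms, each with its own DMSO group, and DUSP1 rose at 2 h in every arm. Its difference from DMSO lay between 0.62 and 1.78 and was called in 10 of 10 arms, where 7.84% of all gene-by-arm tests were called higher. In ESRRA KO cells it had 76.7, 60.7 and 70.9 TPM with 991, against 19.6, 18.6 and 20.1 TPM with DMSO (1.78 ± 0.07, adjusted p = 3.83e-17). In siCont cells it had 44.2, 40.9 and 41.4 TPM with 991, against 21.7, 23.7 and 22.5 TPM with DMSO (0.87 ± 0.07, adjusted p = 1.41e-09). Treated and DMSO libraries did not overlap outside the AMPK table. At 4 h the range was -0.70 to 0.61, the lowest in AMPK KO cells and the highest in siPGC1a cells. DUSP5 behaved differently. It was called lower in 10 of 10 arms at 4, 8 and 16 h and in 6 of 6 at 24 h, where 13.4, 13.6, 14.9 and 13.5% of all gene-by-arm tests were lower. In WT cells of the ESRRA table DUSP5 had 2.49, 2.9 and 2.85 TPM at 4 h and 1.35, 1.1 and 1.59 TPM at 24 h, against 6.97, 5.98 and 6.5 TPM with DMSO (-0.997 ± 0.10, adjusted p = 5.18e-09 and -1.68 ± 0.10, adjusted p = 1.38e-13). None of these treated libraries reached DMSO.

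ETV4 rose in the middle hours of 991, and ETV5 fell by 16 h. ETV4 was called higher in 9 of 10 arms at 4 h (26.1% of all gene-by-arm tests) and in 8 of 10 at 8 h (29.3%), and at 16 h 7 of 10 arms had no call. ETV4 passed the filter on low values through few groups in the AMPK table and through DKO libraries in the TFEB/TFE3 table. Its calls in those arms are therefore descriptions. In siCont cells ETV4 had 4.12, 3.75 and 3.72 TPM at 4 h, 4.57, 3.8 and 4.3 TPM at 8 h and 1.35, 1.73 and 1.76 TPM at 24 h, against 1.67, 1.54 and 1.32 TPM with DMSO. The 4 h and 8 h libraries lay above DMSO (0.96 ± 0.12, adjusted p = 2.95e-07 and 1.06 ± 0.12, adjusted p = 4.97e-08), and those at 24 h overlapped it (0.06 ± 0.12, adjusted p = 0.71). ETV5 was called lower at 16 h in 10 of 10 arms (14.9% of all gene-by-arm tests), with differences of -2.0 to -0.49. At 24 h it was called lower in 6 of 6 (13.5%). In the AMPK table ETV5 too passed the filter through few groups, so its calls there are descriptions. In WT cells of the ESRRA table ETV5 had 1.33, 1.19 and 1.8 TPM at 8 h and 0.632, 0.219 and 0.376 TPM at 16 h, against 5.27, 4.41 and 4.16 TPM with DMSO (-2.0 ± 0.12, adjusted p = 4.32e-13), with no overlap. SPRY2 was called higher at 2 h in 5 of 10 arms (7.84% of all gene-by-arm tests) and lower at 16 h in 6 of 10 (14.9%). In siCont cells SPRY2 had 14.6, 15.8 and 16.8 TPM at 2 h and 10.9, 9.94 and 10.4 TPM at 16 h, against 10.7, 11 and 11.7 TPM with DMSO (0.46 ± 0.06, adjusted p = 3.68e-06 and -0.09 ± 0.06, adjusted p = 0.234).

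**Figure D3:**
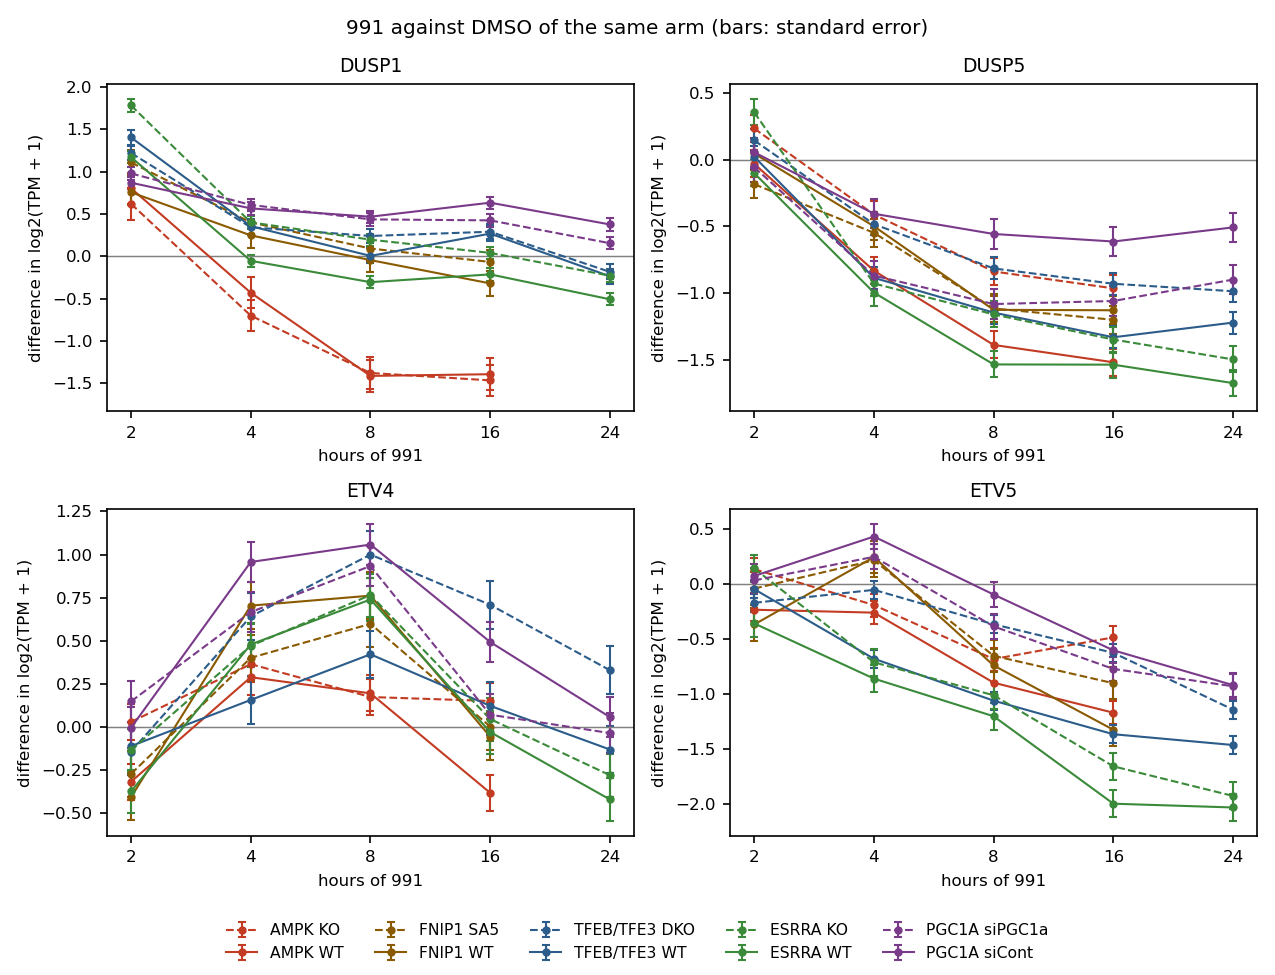
Log2(TPM + 1) difference from DMSO of the same arm (points, with bars of 1 standard error) by hours of 991, spaced evenly and not to scale, for DUSP1, DUSP5, ETV4 and ETV5 in the 10 arms; dashed lines are the altered arms and solid lines the control arms. DUSP1 is highest at 2 h, DUSP5 and ETV5 end below DMSO, and ETV4 is highest at 4 h or 8 h.

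In both arms of the FNIP1 table DUSP1 rose at 2 h of 991, and DUSP5 and ETV5 fell by 16 h. Over all tested genes the median difference from DMSO in SA5 cells was between 0.25 and 0.36, so SA5 values are to be read against that shift, and the library labelled SA5 DMSO replicate 1 was the lowest of 3 for 9 of the 10 genes. At 2 h, 3 of 8 were higher in SA5 cells (13.8% of all genes) and 2 of 8 in WT FNIP1 cells (3.31%). Without both libraries low in FNIP1, DUSP4 lost its call in SA5 cells (0.25, adjusted p = 0.0542). ETV5 was then called lower there (-0.30, adjusted p = 0.0155). DUSP4 reached 1 TPM in 8 of the 30 libraries of this table, so its part in these counts is a description. DUSP1 had 36.6, 32.5 and 34.6 TPM in SA5 cells with 991, against 9.72, 19.3 and 19.6 TPM with DMSO (1.11 ± 0.15, adjusted p = 2.97e-05; 0.80, adjusted p = 6.19e-10 without both libraries). In WT FNIP1 cells it had 48.6, 47.5 and 48.4 TPM with 991 and 28.9, 27.6 and 27.9 TPM with DMSO (0.75 ± 0.15, adjusted p = 0.00252). SPRY2 in SA5 cells had 14.1, 12.9 and 13.6 TPM with 991, against 2.54, 9.73 and 10.4 TPM with DMSO (0.94 ± 0.25, adjusted p = 0.0143), which was 0.39, adjusted p = 1.56e-05 without both libraries; at 8 h its difference was 0.12 with all libraries and -0.28, adjusted p = 0.00082 without them. DUSP5 was called lower with and without them: at 16 h it had 0.989, 1.1 and 1.7 TPM, against 3.94, 4.17 and 4.37 TPM with DMSO (-1.20 ± 0.11, adjusted p = 4.93e-08; -1.23, adjusted p = 7.31e-09 without both). ETV5 at 16 h (-0.90 ± 0.15, adjusted p = 9.14e-05; -1.16, adjusted p = 7.89e-10 without both) kept its direction and call as well. ETV4 at 4 h was 0.40 ± 0.13, adjusted p = 0.0238 in SA5 cells, and 0.03, adjusted p = 0.917 under median-ratio scaling.

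None of the 8 was called different between SA5 and WT FNIP1 in its course under 991 by limma (0 at an unadjusted p under 0.05), nor was any of the 13317 genes tested (0%). With DMSO, 5 of 8 were lower in SA5 cells than in WT FNIP1 cells, against 8.64% of all genes and an all-gene median of -0.30. Without both libraries 3 were: DUSP1 (-0.51, adjusted p = 2.09e-06), DUSP5 (-0.36, adjusted p = 0.0316) and SPRY2 (-0.31, adjusted p = 0.000574). DUSP1 had 9.72, 19.3 and 19.6 TPM in SA5 cells and 28.9, 27.6 and 27.9 TPM in WT FNIP1 cells, with no overlap.

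TFEB/TFE3 DKO cells carried more of these transcripts than WT cells before treatment. All 10 genes were tested in this table, and with DMSO 8 were higher in DKO cells, against 37.6% of all tested genes, and none was lower (13.7%). ETV4 had 2.73, 2.53 and 2.7 TPM in DKO cells and 0.432, 0.459 and 0.195 TPM in WT cells (1.43 ± 0.14). ETV5 had 8.12, 7.03 and 8.02 TPM in DKO cells and 2.67, 3.08 and 2.58 TPM in WT cells (1.21 ± 0.08, adjusted p = 8.23e-13), and DUSP1 37.5, 38.5 and 39 TPM and 17.3, 13.4 and 15.5 TPM (1.27 ± 0.09, adjusted p = 1.35e-12). None of these groups overlapped. SPRY4, a Sprouty gene that is scarce in the WT line, had 1.41, 0.989 and 1.47 TPM in DKO cells and 0.351, 0.271 and 0.338 TPM in WT cells (0.79 ± 0.09). SPRY2 (0.45 ± 0.07, adjusted p = 3.06e-06), DUSP6 (0.44 ± 0.11), DUSP4 (0.40 ± 0.07, adjusted p = 3.42e-05) and DUSP5 (0.28 ± 0.08, adjusted p = 0.00496) were also higher. Sizes on this scale do not rank the genes by fold, since it understates changes of low genes such as DUSP6. The call of DUSP5 was lost under median-ratio scaling (0.16, adjusted p = 0.0994), under quantile normalization (0.14, adjusted p = 0.16) and without replicate 1 (0.25, adjusted p = 0.0676) or 2 (0.27, adjusted p = 0.0522). SPRY1 and SPRED1 did not pass (-0.12 ± 0.11, adjusted p = 0.397 and 0.06 ± 0.10, adjusted p = 0.645). ETV4, DUSP6 and SPRY4 passed the filter on low values only through the DKO libraries, so their differences are descriptions, with no test; of the other 7 genes 5 were called higher.

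**Figure D4:**
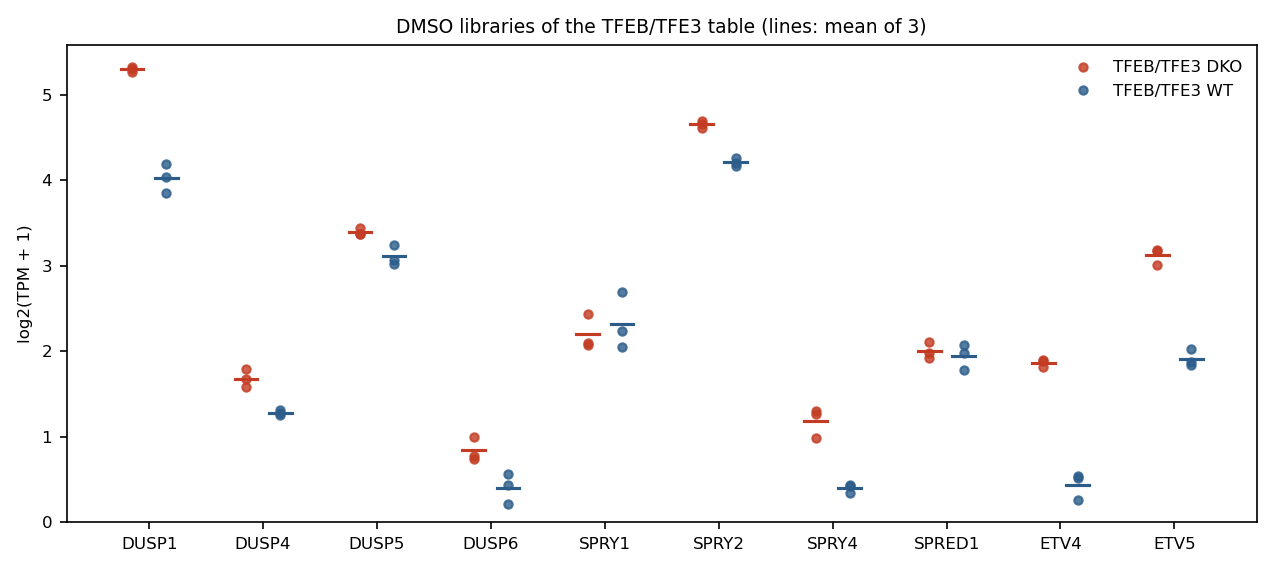
Log2(TPM + 1) of the 10 genes with DMSO in the 3 TFEB/TFE3 DKO libraries (left of each pair) and the 3 WT libraries (right); points are libraries and lines their means. All DKO libraries lie above all WT libraries in 8 of the 10 genes, SPRY1 and SPRED1 being the others.

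Under 991 ETV5 had fallen less in DKO cells than in WT cells at 4, 8 and 16 h. At 4 h it had 7.49, 7.08 and 7.58 TPM in DKO cells, against 8.12, 7.03 and 8.02 TPM with DMSO (-0.06 ± 0.08, adjusted p = 0.628). In WT cells it had 1.34, 1.4 and 1.31 TPM, against 2.67, 3.08 and 2.58 TPM with DMSO (-0.68 ± 0.08, adjusted p = 7.67e-08). The DKO libraries overlapped their DMSO group and the WT libraries lay below theirs. The difference between responses, DKO minus WT, was 0.63 ± 0.11, adjusted p = 0.00229 at 4 h, 0.69 ± 0.11, adjusted p = 0.000218 at 8 h, 0.74 ± 0.11, adjusted p = 7.57e-05 at 16 h and 0.32 ± 0.11, adjusted p = 0.0572 at 24 h. Over the course 5 of 10 genes differed in response (DUSP4, DUSP5, SPRY4, ETV4 and ETV5), against 26.8% of all genes, ETV4 and SPRY4 having been tested only through their DKO levels; ETV5 kept the call in 9 of 9 settings, and the other 4 lost it without any 1 of the 3 replicates. ETV4 at 8 h had 6.13, 6.35 and 6.43 TPM in DKO cells, against 2.73, 2.53 and 2.7 TPM with DMSO (1.0 ± 0.14, adjusted p = 1.38e-06), and 1.2, 0.413 and 0.935 TPM in WT cells, against 0.432, 0.459 and 0.195 TPM (0.42 ± 0.14, adjusted p = 0.0123). DKO libraries did not overlap DMSO at 8 h, and WT libraries did. SPRY4 fell in both arms by 24 h, to 0.318, 0.287 and 0.307 TPM in DKO cells (-0.81 ± 0.09, adjusted p = 2.52e-08) and to 0.11, 0.02 and 0.027 TPM in WT cells (-0.33 ± 0.09, adjusted p = 0.00205). The difference between responses was -0.48 ± 0.12, adjusted p = 0.00822. SPRY4 was low in WT cells already with DMSO, which limits its fall on this scale. With a pseudocount of 0.1 its response course did not pass (moderated F, adjusted p = 0.408). At 16 h SPRY1 was 0.11 ± 0.11, adjusted p = 0.45 in DKO cells and 0.34 ± 0.11, adjusted p = 0.0124 in WT cells, and SPRY2 -0.46 ± 0.07, adjusted p = 3.27e-06 and -0.68 ± 0.07, adjusted p = 1.53e-09.

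In ESRRA KO cells DUSP1 and SPRY2 rose more at 2 h of 991 than in WT cells. In this table DUSP4 reached 1 TPM in 6 of the 36 libraries, so its part in the counts at 2 h is a description. At 2 h, 5 of 8 genes were higher in KO cells, against 10.2% of all tested genes, and 1 of 8 in WT cells, against 4.66%. DUSP1 was higher in both, but by more in KO cells (1.78 ± 0.07) than in WT cells (1.17 ± 0.07), where it had 62.6, 53.4 and 53.6 TPM against 26.5, 22.6 and 24.6 TPM with DMSO. The difference between responses was 0.61 ± 0.10, adjusted p = 0.00211 at 2 h, 0.45 ± 0.10, adjusted p = 0.0117 at 4 h and 0.50 ± 0.10, adjusted p = 0.0101 at 8 h. SPRY2 had 25.5, 18.2 and 21.9 TPM in KO cells at 2 h, against 15.8, 13.6 and 16 TPM with DMSO (0.49 ± 0.08, adjusted p = 4.4e-05), and 17.8, 16.8 and 16.6 TPM in WT cells, against 18.4, 17.5 and 17.5 TPM (-0.06 ± 0.08, adjusted p = 0.72; KO minus WT 0.55 ± 0.12, adjusted p = 0.0141). Over the course DUSP1 and SPRY2 differed in response, 2 of 8 genes against 6.88% of all genes; the calls were kept in 7 and 5 of 9 settings, and both were lost without replicate 1 or without replicate 3. With DMSO, DUSP1 (-0.32 ± 0.07, adjusted p = 0.00189) and SPRY1 (-0.34 ± 0.11, adjusted p = 0.0223) were lower in KO cells, 2 of 8 against 14.7%, so DUSP1 started from a lower level there; SPRY1 did not pass without replicate 1 (-0.34, adjusted p = 0.178) or 3 (-0.33, adjusted p = 0.106). DUSP1 had 15.1, 17.5 and 16.8 TPM in KO cells at 24 h and 17.1, 17.4 and 16.3 TPM in WT cells, where the arms overlapped again.

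Under 991, DUSP1 rose and DUSP5 fell after siRNA to PGC1A and after siCont. Of the 10 genes 7 were tested in this table, and none was called by limma as different in response course between siPGC1a and siCont, where 0.56% of all genes were; 3 passed at an unadjusted p under 0.05. DUSP1 was still above DMSO at 16 h in both arms. It had 35.9, 38.1 and 40.3 TPM in siPGC1a cells, against 32.2, 26.7 and 25.8 TPM with DMSO (0.42 ± 0.07, adjusted p = 2.29e-05; 1 of 7 higher, 39.2% of all genes). In siCont cells it had 35.1, 37.4 and 34.5 TPM, against 21.7, 23.7 and 22.5 TPM with DMSO (0.63 ± 0.07, adjusted p = 4.28e-08; 2 of 7 higher, 44.6%). The groups did not overlap in either arm, while DUSP5 was lower in both (-1.06 ± 0.11, adjusted p = 9.11e-09 and -0.61 ± 0.11, adjusted p = 3.36e-05). With DMSO, DUSP1 (0.30 ± 0.07, adjusted p = 0.00274) and DUSP5 (0.42 ± 0.11, adjusted p = 0.0053) were higher in siPGC1a cells, 2 of 7 against 14.3% of all genes; without replicate 1 neither passed (0.18, adjusted p = 0.0869 and 0.30, adjusted p = 0.115), and DUSP5 did not without replicate 2 (0.39, adjusted p = 0.12). DUSP5 had 5.91, 6.26 and 5.86 TPM in siPGC1a cells and 3.33, 4.14 and 5.43 TPM in siCont cells, the siCont libraries spreading widely below.

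Phenformin and rotenone, a biguanide and a plant isoflavonoid that both inhibit complex I, differed in these genes at 16 h; their doses are not given and may not match. The 4 compounds form 6 pairs, compared at 4 times in 2 arms. At 16 h, 6 of 8 genes were higher with phenformin than with rotenone in KO cells (34.2% of all tested genes higher, 33.1% lower) and the same 6 in WT cells (40.1% and 29.3%). SPRY2 had 15.4, 15.7 and 15.2 TPM with phenformin and 7.7, 7.01 and 7.38 TPM with rotenone in WT cells (0.98 ± 0.15, adjusted p = 5.94e-08). In KO cells SPRY2 had 6.29, 6.09 and 6.12 TPM with phenformin and 3.62, 3.76 and 3.63 TPM with rotenone (0.62 ± 0.15, adjusted p = 0.000323). DUSP1 had 22.3, 23 and 21.5 TPM with phenformin and 9.97, 10.3 and 10.6 TPM with rotenone in WT cells (1.04 ± 0.19, adjusted p = 9.7e-07), and in KO cells the difference was 0.80 ± 0.19, adjusted p = 0.000111. Libraries of the 2 compounds did not overlap for either gene. SPRY1, DUSP5, DUSP4 and SPRED1 were higher with phenformin by 0.76 ± 0.11, 0.73 ± 0.10, 0.39 ± 0.10 and 0.28 ± 0.07 in WT cells. The ETS factors did not pass: in WT cells ETV4 was -0.13 ± 0.10, adjusted p = 0.257 and ETV5 -0.05 ± 0.10, adjusted p = 0.655, and in KO cells ETV4 was -0.21 ± 0.10, adjusted p = 0.0707.

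The gap opened with time. At 2 h, DUSP5 was lower with phenformin than with rotenone in KO cells (-0.40 ± 0.10, adjusted p = 0.00614; 1 of 8, 4.94% of all genes lower), and in WT cells DUSP1 was lower (-0.57 ± 0.19, adjusted p = 0.0496; 2.92%) and SPRY1 higher (0.35 ± 0.11, adjusted p = 0.0467; 2.95%). Between 2 h and 16 h of phenformin in WT cells 5 of 8 genes rose (46.1% of all genes), SPRY2 by 1.03 ± 0.15, adjusted p = 1.16e-08, and DUSP5 and ETV5 fell (-0.40 ± 0.10, adjusted p = 0.000316 and -0.55 ± 0.10, adjusted p = 3.14e-06; 26.9%). SPRY2 had 8.13, 6.28 and 6.83 TPM at 2 h, 8.03, 7.43 and 7.43 TPM at 4 h, 10.9, 11.7 and 12.1 TPM at 8 h and 15.4, 15.7 and 15.2 TPM at 16 h. Libraries of successive times from 4 h on did not overlap. In KO cells only SPRY1 and SPRY2 of the 8 rose over these hours (0.48 ± 0.11, adjusted p = 0.000149 and 0.50 ± 0.15, adjusted p = 0.00319; 43.3%). The WT Phen 2 h libraries are among those whose labels disagree. CCCP and rotenone were closer at 16 h, where none of the 8 was called in WT cells (23.7% higher and 9.8% lower over all genes); the difference of SPRY2 was 0.15 ± 0.15, adjusted p = 0.494, and that of ETV5 0.02 ± 0.10, adjusted p = 0.917. At 2 h, CCCP gave more DUSP1 than rotenone in KO cells (1.44 ± 0.19, adjusted p = 5.08e-09; 2 of 8, 4.91%) and in WT cells (1.04 ± 0.19, adjusted p = 2.36e-05; 2 of 8, 5.56%), and more DUSP5 (0.85 ± 0.10, adjusted p = 4.22e-10 and 0.45 ± 0.10, adjusted p = 0.0008).

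Over the 8 comparisons of a pair of compounds (4 times in 2 arms), ETV4 was lower with phenformin than with 991 in 8 and ETV5 in 7, against 34.9% of all gene-by-comparison tests. The differences of ETV4 were -0.97 to -0.25. With CCCP against 991 both were lower in 7 of 8, against 29.3%. ETV4 and ETV5 passed the filter on low values through few groups, and ETV4 stayed under 1 TPM with DMSO. Their counts here are therefore descriptions. SPRY1 was higher with phenformin than with rotenone in 7 of 8, against 18.7%.

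**Figure D5:**
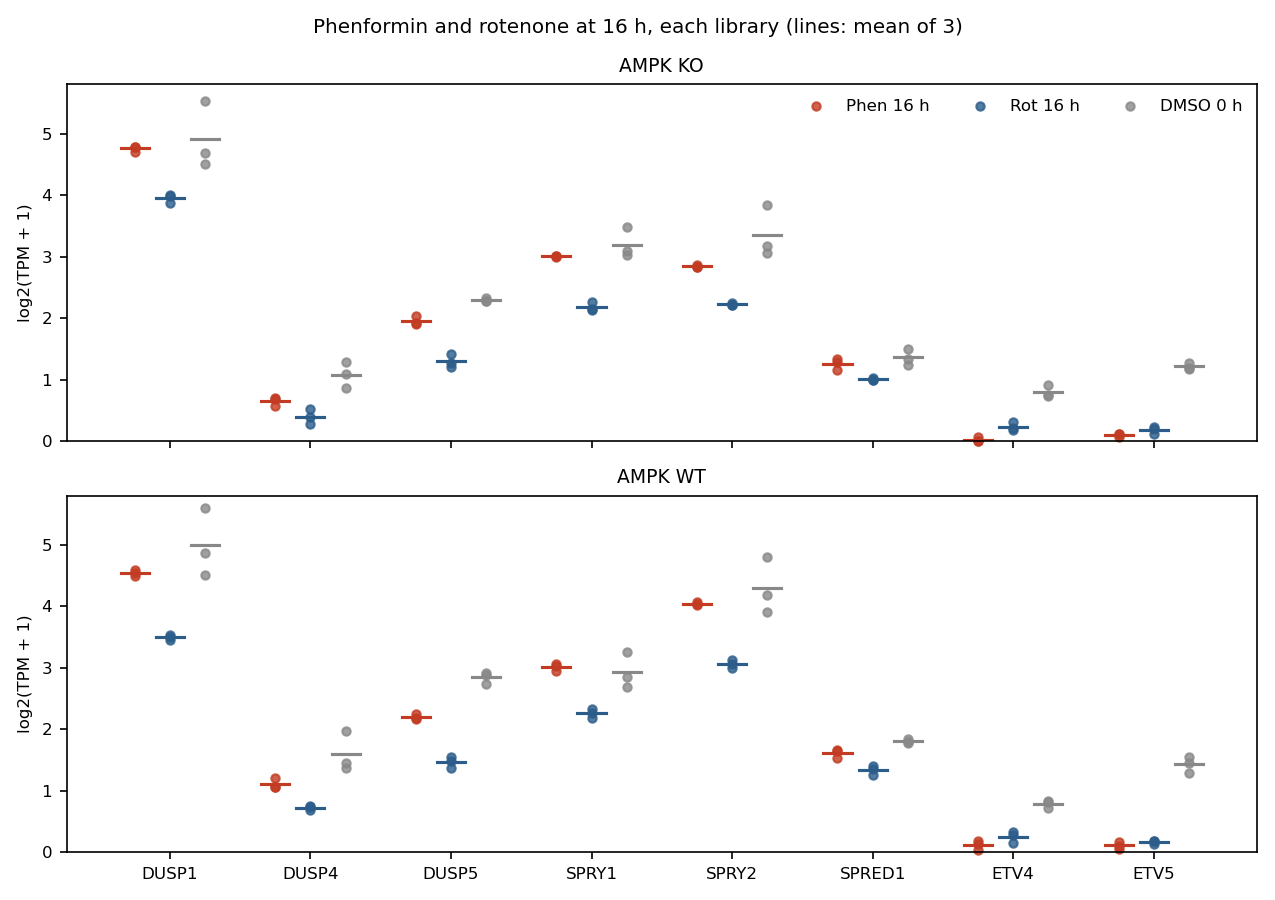
Log2(TPM + 1) of the 8 tested genes after 16 h of phenformin (left) and rotenone (middle) and with DMSO at 0 h (right) in AMPK KO cells (upper panel) and WT cells (lower panel); points are libraries and lines their means. Phenformin libraries lie above rotenone libraries in 6 genes, and those of ETV4 and ETV5 do not.

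DUSP6 and SPRY4 were too low to be tested in 4 of the 5 tables, so only their levels are given. Over the 60 comparisons with DMSO there, all 3 treated libraries of DUSP6 were below all 3 DMSO libraries in 41, above them in 5, and overlapped them in 14; for SPRY4 these were 40, 3 and 17. How often all genes, or genes as low as these, separate in this way was not counted. The comparisons of an arm also share its 1 DMSO group, so these counts describe levels only. With 3 libraries against 3, an exact two-sided permutation test cannot give a p below 0.1. DUSP6 had 0.195, 0.174 and 0.17 TPM after 2 h of CCCP in WT cells of the AMPK table, against 1.73, 0.984 and 0.927 TPM with DMSO. SPRY4 was listed at 0 in all 3 KO libraries after 16 h of phenformin, against 0.634, 0.456 and 0.285 TPM with DMSO, and had 0, 0.012 and 0 TPM in WT cells, against 0.72, 0.346 and 0.52 TPM. DUSP4, untested in the PGC1A table, had 0.309, 0.515 and 0.568 TPM at 16 h in siPGC1a cells, against 0.494, 0.623 and 0.502 TPM with DMSO, which overlapped.

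The rest of the pathway, in WT cells of the AMPK table at 16 h, is given by lists, always in the order 991, CCCP, phenformin and rotenone. Of 8 tested immediate early genes, 7, 7, 6 and 8 were lower and 0, 0, 2 and 0 higher. Over all genes 26.9, 26.6, 34.9 and 29.2% were lower and 41.9, 44.1, 45.3 and 36.2% higher. The difference from DMSO was -3.14, -3.00, -2.62 and -3.04 for FOSB, a FOS-family partner of JUN, and -0.36, 0.19, 0.85 and -0.29 for ATF3, a stress-induced factor. At 2 h the counts of lower genes were 0, 4, 6 and 6, against 11.4, 32.5, 31 and 30.2% of all genes, and the differences of JUN were 0.58, 1.01, -0.22 and -0.03. Of 8 other ERK output genes 4, 7, 4 and 4 were lower at 16 h, against 26.9, 26.6, 34.9 and 29.2% of all genes. ETV1, the third PEA3-family gene, had differences of -0.90, -0.91, -0.67 and -0.79. SPRED2, the close relative of SPRED1, was lower under all 4 (-0.52, -0.56, -0.22 and -0.60). The cascade itself moved the other way: of 19 tested genes from RAS to ERK 15, 14, 18 and 13 were higher and 1, 2, 0 and 1 lower, against 41.9, 44.1, 45.3 and 36.2% higher over all genes. For SOS1, the exchange factor that loads RAS, the differences were 1.09, 1.19, 1.82 and 1.14. Of 9 growth factor receptors 7, 7, 7 and 6 were higher, against the same shares of all genes. The differences of EGFR were 0.99, 0.96, 1.37 and 0.73. CIC, which encodes Capicua, had differences of -0.10, 0.05, 0.84 and -0.03, and SRF, a partner of ERK-activated ETS factors at immediate early promoters, -0.63, -0.54, -0.33 and -0.48. Of 4 other tested MAP kinase phosphatases 1, 2, 3 and 2 were higher, which lies around the shares of 41.9, 44.1, 45.3 and 36.2% over all genes. DUSP16, a JNK phosphatase, had differences of 0.19, 0.39, 1.54 and 0.33.

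Ranked by Pearson correlation of mean log2(TPM + 1) over the 34 groups of the AMPK table, each arm centred on its own mean, with the 46 groups of the other tables beside it, the genes most like each member were as follows; groups share their table, arms and DMSO cells. DUSP1 was most like FOS (r = 0.92; 0.76 in the other tables), then DUSP5 (r = 0.91; 0.58 in the other tables). DUSP5 was most like NKX2-5 (r = 0.93; 0.92 in the other tables), then FOS (r = 0.93; 0.93 in the other tables), and SPRY2 was most like DUSP4 (r = 0.93; 0.86 in the other tables). DUSP4 was most like PCDH10 (r = 0.95; 0.79 in the other tables) and FZD8 (r = 0.94; 0.87 in the other tables), SPRY1 like HOXB3 (r = 0.90; 0.61 in the other tables), and SPRED1 like NPTX2 (r = 0.85; 0.69 in the other tables). ETV4 was most like STYK1 (r = 0.90; 0.72 in the other tables) and ETV5 like HOXA10 (r = 0.93; 0.68 in the other tables). DUSP6 was most like AREG (r = 0.92; 0.35 in the other tables) and SPRY4 like FOXCUT (r = 0.93; 0.62 in the other tables), both at low levels. Ranked by Spearman correlation over the same groups, the first-named gene stood at place 20 for DUSP1, 21 for ETV5 and 717 for ETV4 (STYK1, rho = 0.66), and between 1 and 8 for the other 7 members; MCOLN3, the third by Pearson correlation for ETV4, then stood at place 2 (rho = 0.88).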

How the data were processed

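Polyadenylated RNA of 240 libraries was sequenced, and the authors deposited 5 tables of TPM per gene in the HOMER layout, with 27234 genes each. FastQC, STAR and HOMER with GRCh38 are named, without versions, per the submitters' processing notes. TPM hold no read counts, so no count test was run and no depth or counting interval can be given. No column of another series was found (0 columns).

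From the deposited TPM, log2(TPM + 1) was analysed table by table (R 4.3.3, limma 3.58.1). Each model had 1 mean per group, all libraries of the table and a variance trend, after keeping genes that reached 1 TPM in 3 or more libraries (13317 to 13746 genes a table). P-values were adjusted by Benjamini-Hochberg over all genes of a comparison and called under 0.05. Time courses and differences between the responses of 2 arms were tested by moderated F tests, and the fits were tested on simulated data. Tables were normalized separately and are not compared in level by a test. Shares pooled over several comparisons count gene-by-comparison tests called. Alternatives were median-ratio and quantile scaling, a pseudocount of 0.1, no filter, a replicate block, fitting the compared groups alone, and leaving out replicates, libraries or times.

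The members and lists were chosen with earlier results of these data known. Named beyond the 10 members are, from each pathway list, genes among the 2 largest called rises and 2 largest called falls at 2 h and 16 h of each compound in AMPK WT cells, and for each member genes among the 3 with the highest Pearson correlation. Promoter windows were available from RefSeq for 6 of the 10 genes.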

Additional observations from a re-analysis of the deposited data

Results flagged for a closer look

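The genes below are listed because their course of response differed between 2 arms in the interaction test of limma, over all treated times. For each, the time with the largest difference between responses is given, altered arm minus control arm, on the log2(TPM + 1) scale ± SE with its adjusted p.

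Under CCCP in the AMPK table the response of AMPK KO cells exceeded that of WT cells by 1.35 ± 0.14, adjusted p = 1.03e-11, at 4 h for DUSP5 (course adjusted p = 1.64e-13), and by 1.40 ± 0.26, adjusted p = 2.52e-05, at 4 h for DUSP1 (course adjusted p = 8.92e-05). For DUSP4 the largest difference was 0.40 ± 0.14, adjusted p = 0.0566, at 2 h (course adjusted p = 0.0381), and for SPRY1 -0.44 ± 0.16, adjusted p = 0.0291, at 16 h (course adjusted p = 0.0305), and both courses passed in 5 of 10 settings. Under 991 the difference at 16 h was 0.55 ± 0.14, adjusted p = 0.00418 for DUSP5, which was lower in KO cells already with DMSO (-0.55 ± 0.10, adjusted p = 5.89e-06). It was 0.53 ± 0.15, adjusted p = 0.00762 for ETV4 and 0.69 ± 0.15, adjusted p = 0.000573 for ETV5. The courses of DUSP5, ETV4 and ETV5 passed in 7, 6 and 6 of 9 settings.

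In the ESRRA table DUSP1 differed by 0.61 ± 0.10, adjusted p = 0.00211, and SPRY2 by 0.55 ± 0.12, adjusted p = 0.0141, both at 2 h of 991, KO minus WT; the course adjusted p was 0.00288 and 0.0461. In the TFEB/TFE3 table the largest differences, DKO minus WT, were 0.74 ± 0.11, adjusted p = 7.57e-05, at 16 h for ETV5, and 0.59 ± 0.20, adjusted p = 0.0463, at 16 h for ETV4. Those of DUSP5 at 4 h (0.40 ± 0.12, adjusted p = 0.0419), DUSP4 at 8 h (0.26 ± 0.10, adjusted p = 0.0885) and SPRY4 at 24 h (-0.48 ± 0.12, adjusted p = 0.00822) were smaller. Of these 5 courses, that of ETV5 (adjusted p = 1.9e-06) passed in 9 of 9 settings and the others in 4 or 5. ETV4 and SPRY4 were tested in this table only through their DKO levels, so their differences are descriptions. With a pseudocount of 0.1 their courses did not pass (moderated F, adjusted p = 0.563 and 0.408). In the AMPK table DUSP4, ETV4 and ETV5 passed the filter through few groups, so theirs are descriptions as well.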

How the results depend on the processing

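Counts here are members called, with the count as reported in brackets, and where a cause is not named it was not tested. Without replicate 1, 2 or 3 in turn, the response courses counted 0 to 3 (3) for AMPK 991, 1 to 5 (4) for CCCP, 0 to 3 (0) for Phen, 0 to 2 (0) for Rot, 1 to 2 (5) for TFEB/TFE3 and 0 to 2 (2) for ESRRA. Calls against DMSO counted 4 to 16 higher (11) and 195 to 211 lower (213) in the AMPK table, 3 to 11 (12) and 7 to 24 (11) in FNIP1, 6 to 15 (18) and 36 to 39 (45) in TFEB/TFE3, 8 to 14 (14) and 31 to 38 (42) in ESRRA, and 16 to 18 (17) and 11 to 12 (14) in PGC1A. Between arms with DMSO they counted 4 to 5 (4) for AMPK, 0 to 2 (5) for FNIP1, 7 (8) for TFEB/TFE3, 1 to 2 (2) for ESRRA and 0 to 3 (2) for PGC1A. Between 16 h and 2 h the FNIP1 table counted 5 to 12 (9).

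The replicate number of the labels was also used as a replicate block. In the AMPK table same-numbered libraries of different groups deviated together in part and not throughout. Their median r was 0.051 and the highest 0.693, with 34.6% of pairs over 0.1, against a median of -0.024 between other numbers. What same-numbered libraries share is not given in the labels. Under the block, 1394 of 1410 member comparisons kept their call, 16 gained one and 0 lost one, and the Phen and Rot response courses counted 1 each (0 each). Fitting only the groups compared gave 1 for the AMPK 991 response course (3) and 1 for Rot (0), 5 AMPK calls higher (11), 11 TFEB/TFE3 calls higher (18), and 0 between arms with DMSO in FNIP1 (5) and PGC1A (2); each such fit holds fewer libraries. Quantile normalization gave 1 for the Phen and 1 for the Rot response course, 5 FNIP1 calls higher and 25 lower, 11 TFEB/TFE3 calls higher, 24 PGC1A calls lower (14) and 2 FNIP1 calls between arms. Median-ratio scaling gave 5 FNIP1 calls higher, 21 lower and 2 between arms. A pseudocount of 0.1 gave 2 FNIP1 calls between arms and 1 for the ESRRA response course. Without the filter these were 3 and 1, the Phen response course 1, the siPGC1a course 8 (5) and the PGC1A calls between 16 h and 2 h 14 (9); more genes are tested there.

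The FNIP1 table moved most. Without SA5 DMSO replicate 1 it gave 24 calls lower and 1 between arms; without both outlying SA5 libraries, a choice made after seeing the data, it gave 27 and 3. Directions of SA5 cells against DMSO turned as follows. SPRED1 at 16 h was -0.344 without both and ranged over -0.362 to 0.309 without 1 replicate number (0.05). SPRY2 at 16 h was -0.297 without the DMSO library, -0.297 without both and -0.296 to 0.554 without 1 replicate number (0.251), and at 8 h -0.427, -0.279 and -0.279 to 0.326 (0.121). SPRY1 at 8 h was -0.424, -0.301 and -0.301 to 0.243 (0.057). DUSP1 at 8 h was -0.22, -0.236 and -0.236 to 0.291 there and -0.251 under median-ratio scaling (0.091), and at 4 h -0.048 under median-ratio scaling (0.4). Under quantile normalization DUSP4 was -0.021 at 2 h (0.336) and -0.153 at 4 h (0.323), ETV4 -0.173 (0.402) and ETV5 -0.339 (0.214) at 4 h, and SA5 minus WT with DMSO 0.012 for DUSP4 (-0.27) and 0.038 for DUSP5 (-0.39). In the AMPK table quantile normalization turned SPRED1 in KO cells at 2 h of Phen to 0.059 (-0.172), and Phen minus 991 to 0.164 at 2 h in KO cells (-0.03) and 0.024 at 8 h in WT cells (-0.228). Over the 1410 member comparisons the call was kept in 1336 under median-ratio scaling, 1258 under quantile normalization, 1364 with the pseudocount of 0.1 and 1387 without the filter. Depth is unknown, so the precision of low genes such as DUSP6 and SPRY4 can be judged only from 3 libraries a group.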

Other observations

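Summed per library, the other marker lists reached 0.493 to 4.45 TPM for differentiated kidney, 0.439 to 5.1 TPM for blood and 1.81 to 10.1 TPM for fibroblasts.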
